A study of Homo sapiens with 8 samples.

Results

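The plasminogen activator and matrix metalloproteinase genes described here were the 9 genes PLAU, PLAUR, PLAT, SERPINB2, MMP1, MMP2, MMP9, MMP14 and TIMP1, out of 23615 gene symbols with expression values. They were picked by symbol, and all 9 were found. RNA was sequenced after removal of ribosomal RNA from 4 human lines without any treatment: U937 (leukemic cells), EaHy (endothelial), PC3M (prostate cancer, called PC3M-LN4 in the culture notes) and HEK293 (embryonic kidney). The name of the deposited sheet carries an added letter t after the number of this kidney line, while the labels and columns say HEK293, so which form of the line was used is not settled here. U937, EaHy and PC3M were the lines with binding of epoxyeicosatrienoic acids and HEK293 the line without it, in a search for the receptor of these lipids. Each line gave 2 libraries from cells taken in duplicate, and since separate cultures are not stated, p-values measure the spread between these libraries. HEK293 was grown in DMEM and the other lines in RPMI, so line and medium cannot be told apart. Values are FPKM, fragments scaled by transcript length and library size, which can be compared between genes because they are per length, and the depth in counts is unknown. In such bulk samples fewer expressing cells and less RNA per cell cannot be told apart.

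Plasmin is a serine protease that dissolves fibrin and cleaves matrix proteins. It is made from plasminogen by urokinase (PLAU), which works at the cell surface on its anchored receptor uPAR (PLAUR), and by tissue plasminogen activator (PLAT), which endothelial cells release and which acts mainly on fibrin. Plasminogen activator inhibitor-2 (SERPINB2) blocks both activators and is a known product of monocytic cells. Matrix metalloproteinases are zinc enzymes made as inactive precursors: MMP1 cuts fibrillar collagen, MMP2 and MMP9 are the gelatinases, and the membrane-bound MMP14 cuts collagen and activates the MMP2 precursor. TIMP1 inhibits most secreted metalloproteinases and inhibits MMP14 poorly.

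The libraries of EaHy replicate 2 and of both PC3M replicates stood apart from the other 5 by their small RNA: RMRP, a ribonuclease RNA, was at 275616 to 506736 FPKM in them and at 12.3 to 1131 FPKM elsewhere. The median of 29 housekeeping genes, as log2(FPKM + 0.5), ranged from 5.59 to 7.32 except for PC3M replicate 2, where it was 4.73. Calls that changed without these libraries or after scaling are named beside the genes concerned. The summed FPKM of 7 myeloid markers was 385 and 1656 in U937 and 1.59 to 16.5 elsewhere, and that of 7 endothelial markers was 187 and 311 in EaHy and 0.569 to 13.99 elsewhere. LYZ (189 and 1261 FPKM) made up much of the U937 sum. PTPRC, ITGB2, SPI1 and CD33 were at 23.3 FPKM or more in U937 and 8.24 or less elsewhere. The myeloid markers MPO (0.696 and 0.866) and CSF1R (0.460 and 0.703) were low in U937. CDH5, TEK, TIE1 and ERG were at 16.3 FPKM or more in EaHy and 2.06 or less elsewhere. PECAM1 overlapped between EaHy (11.1 and 21.3) and U937 (5.82 and 11.8). KDR was at 0.262 and 1.28 in EaHy and 1.29 and 0.393 in PC3M. VWF was low in EaHy replicate 1 (0.853 FPKM, 13.4 in replicate 2). The epithelial keratins did not set PC3M apart. KRT8 was at 331 and 199 FPKM in EaHy and at 34.4 and 7.31 in PC3M. KRT18 was at 353 and 225 FPKM in EaHy and at 206 and 51.5 in PC3M. The name EaHy is not spelled out in the labels, and the cause of its keratin levels was not tested. PC3M had the epithelial marker EPCAM (36.9 and 10.5 FPKM), while the prostate marker KLK3 was listed at 0 and 0.0138 FPKM and TMPRSS2 at 0 in both PC3M libraries. The summed FPKM of 6 HEK293 markers did not set HEK293 apart: it was 454 and 513 in HEK293, 482 and 124 in PC3M, and 172 and 121 in EaHy. Of these, NEFM and IRS4 were at 57.7 FPKM or more in HEK293 and at 0.595 FPKM or less elsewhere, while UCHL1 was at 456 and 118 FPKM in PC3M against 91.6 and 207 in HEK293, and NEFL at 26.6 and 5.24 against 23.6 and 25.6. The 6 fibroblast markers summed to 0.796 to 4.43 FPKM in all 8 libraries.

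Promoter sequences were matched by symbol for 5 of the 9 genes in the RefSeq table (build GRCh38.p14), with 2 windows for PLAU. The 250 bases before the start were searched on both strands for the AP-1 motif TGANTCA, which reads the same on either strand, because AP-1 is a textbook regulator of several of these genes. The motif was found in 2 of the 6 windows, those of PLAUR and SERPINB2, and in 6.57% of all 35116 windows of this length. The windows of PLAU, MMP14 and TIMP1 did not hold these letters. The PLAUR and SERPINB2 windows are shown because they hold the motif, in capitals, and the MMP14 window for comparison, since MMP14 and PLAUR were both highest in EaHy. They lie at chr19:43670170-43670419 (minus strand), chr18:63887455-63887704 (plus strand) and chr14:22836335-22836584 (plus strand).
PLAUR: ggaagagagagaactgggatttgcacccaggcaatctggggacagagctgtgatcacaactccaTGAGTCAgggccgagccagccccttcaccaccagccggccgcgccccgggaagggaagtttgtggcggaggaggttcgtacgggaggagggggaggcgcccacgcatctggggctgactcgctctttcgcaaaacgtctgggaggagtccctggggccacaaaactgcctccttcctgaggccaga
SERPINB2: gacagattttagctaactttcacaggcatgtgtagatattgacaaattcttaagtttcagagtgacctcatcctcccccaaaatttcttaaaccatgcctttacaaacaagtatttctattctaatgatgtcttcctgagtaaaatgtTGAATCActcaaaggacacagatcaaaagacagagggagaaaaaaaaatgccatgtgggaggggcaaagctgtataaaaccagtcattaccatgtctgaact
MMP14: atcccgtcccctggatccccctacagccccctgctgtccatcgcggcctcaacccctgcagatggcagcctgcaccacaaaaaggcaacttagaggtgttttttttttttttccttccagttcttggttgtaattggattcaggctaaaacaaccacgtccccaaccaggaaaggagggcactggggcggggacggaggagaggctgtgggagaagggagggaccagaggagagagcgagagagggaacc

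Each line had another gene of the set on top in both of its libraries. SERPINB2 had the highest FPKM of the 9 genes in U937, MMP1 in EaHy, PLAU in PC3M and TIMP1 in HEK293. EaHy was the line in which most of the set was high: PLAU, PLAUR, PLAT, MMP1, MMP2, MMP14 and TIMP1 were all at 25.5 FPKM or more in both EaHy libraries. Of the 9 genes, 8 reached 0.5 FPKM in at least 2 libraries and were tested. MMP9 did not reach it in any.

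**Figure D1:**
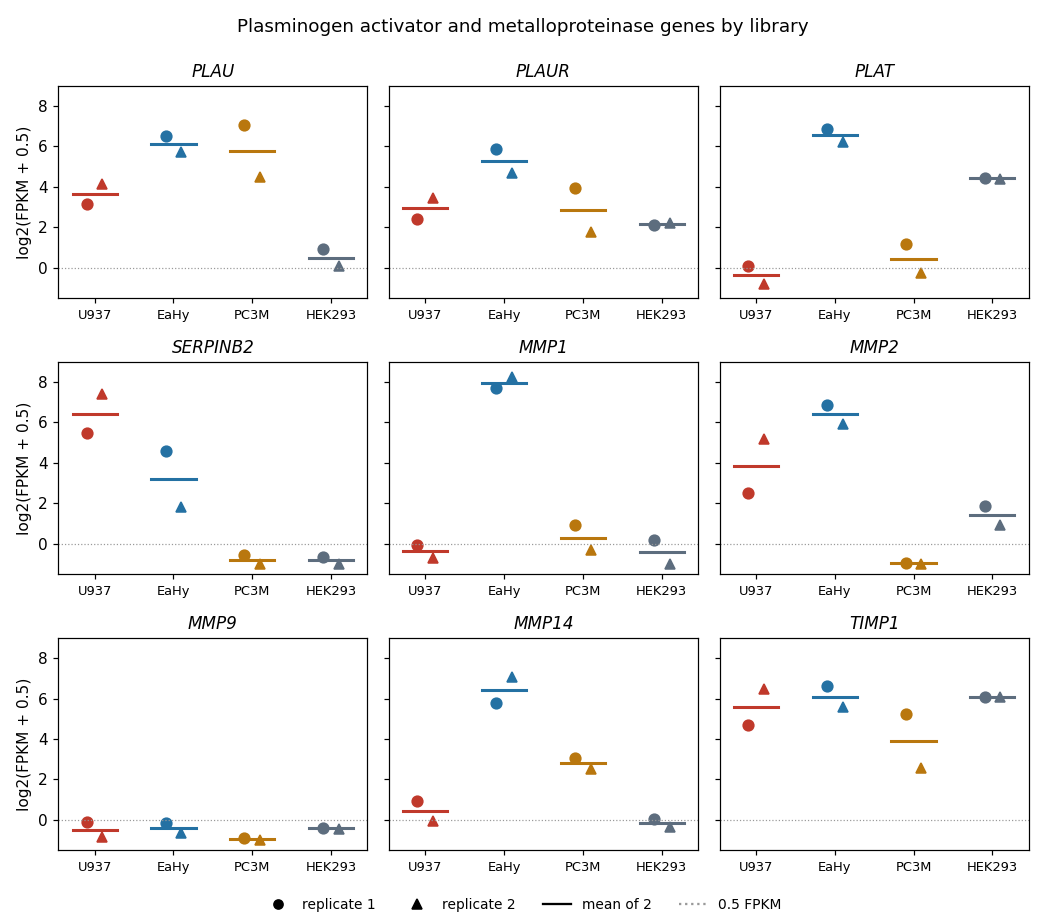
Level of each of the 9 genes as log2(FPKM + 0.5), one panel per gene, with replicate 1 as a circle, replicate 2 as a triangle and the mean of the 2 libraries as a bar for each line. The dotted line is 0.5 FPKM. MMP1 stands at 209 and 299 FPKM in EaHy and at 1.37 FPKM or less elsewhere, while MMP9 lies below the dotted line in all 8 libraries.

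Among the activators and their receptor, PLAU was high in EaHy and PC3M and lowest in HEK293. PLAU, on chromosome 10, was at 91.0 and 52.0 FPKM for EaHy, 132 and 21.9 for PC3M, 8.27 and 17.0 for U937, and 1.39 and 0.543 for HEK293. The EaHy and PC3M libraries overlapped, and both lines lay above both libraries of U937 and HEK293. Against HEK293, PLAU was higher by 5.63 ± 0.92 on the log2(FPKM + 0.5) scale in EaHy (limma adjusted p = 0.0052, ± the standard error here and below, with n = 2 per line) and by 5.28 ± 0.92 in PC3M (adjusted p = 0.0082). The PC3M call was lost without HEK293 replicate 2 (adjusted p = 0.072, with a difference of 4.85). The U937 difference of 3.14 ± 0.92 did not pass (adjusted p = 0.057), and it passed after upper-quartile scaling, quantile normalization or centring on the housekeeping genes (adjusted p = 0.0089, 0.0072 and 0.0083). It also passed with a pseudocount of 0.1 (0.041), without PC3M replicate 1 or 2 (0.017 and 0.018) and without all 3 libraries that stood apart (0.021). U937 minus EaHy was −2.48 (0.14) and U937 minus PC3M −2.14 (0.12). Both passed after the 3 scalings, at −2.90, −3.03 and −3.53 (0.011, 0.01 and 0.0027) and at −3.40, −2.92 and −3.40 (0.006, 0.012 and 0.0043). U937 minus EaHy also passed without PC3M replicate 1 or 2 (0.042 and 0.043), and U937 minus PC3M was −3.42 and passed without PC3M replicate 2 (0.039).

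EaHy and PC3M did not differ detectably in PLAU, with a difference of 0.35 and a 95% interval from −1.77 to 2.46 (limma adjusted p = 0.85). Their order turned with the measure: PC3M was ahead by mean FPKM (76.9 against 71.5) and EaHy by mean log2 value (6.11 against 5.77). The difference was −0.50 after upper-quartile scaling and −0.93 without PC3M replicate 2. PLAU shares exon sequence with C10orf55 on the opposite strand, and use of strand in the counting is not given in the sources used here, so reads of the pair cannot be told apart. C10orf55 was listed at 6.13 and 1.07 FPKM in PC3M and at 0.0147 to 0.899 FPKM in the other 6 libraries.

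PLAUR was present in all 8 libraries and highest in EaHy. PLAUR, on chromosome 19, was at 57.1 and 25.5 FPKM for EaHy, 14.6 and 2.92 for PC3M, 4.83 and 10.4 for U937, and 3.79 and 4.17 for HEK293. Both EaHy libraries lay above the other 6, whose values overlapped between PC3M and the other lines. The EaHy difference from HEK293 was 3.11 ± 0.85 (limma adjusted p = 0.043). This call was close to the threshold: it was lost with a replicate block (0.061), with a pseudocount of 0.1 (0.055) and with no filter on low values (0.076). It was also lost without replicate 1 or 2 of U937 (0.068 and 0.066), of EaHy (0.14 and 0.074) or of HEK293 (0.2 and 0.2), with differences of 2.54 to 3.69. U937 and PC3M differed from HEK293 by 0.76 ± 0.85 and 0.68 ± 0.85 (adjusted p = 0.75 and 0.55). The PC3M difference depended on scaling. It was 1.96, 2.28 and 1.76 after upper-quartile scaling, quantile normalization and housekeeping centring, all past the threshold (adjusted p = 0.028, 0.019 and 0.031), and −0.39 without PC3M replicate 1. U937 minus EaHy, −2.35 (0.13), passed after the 3 scalings (0.0067, 0.0054 and 0.0018), without PC3M replicate 1 (0.049) and without the 3 libraries that stood apart (−2.92, 0.049). EaHy minus PC3M, 2.43 (0.13), passed after quantile normalization (0.05 when rounded), after housekeeping centring (0.011) and without PC3M replicate 1 (0.034). The place of PC3M in the order turned: it was below U937 by mean log2 value and above it by mean FPKM and after housekeeping centring.

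Urokinase and its receptor were in different proportions in the lines. The ratio of PLAU to PLAUR within a library, which scaling of the library does not move, was 9.01 and 7.52 for PC3M, 1.71 and 1.64 for U937, 1.59 and 2.04 for EaHy, and 0.366 and 0.130 for HEK293. The PC3M ratios were the highest and the HEK293 ratios the lowest, and U937 and EaHy overlapped. No test was run on the ratios.

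PLAT was high in EaHy, lower in HEK293 and low in the other lines. PLAT, on chromosome 8, was at 117 and 73.2 FPKM for EaHy, 21.4 and 20.5 for HEK293, 1.72 and 0.325 for PC3M, and 0.573 and 0.0702 for U937. The libraries of EaHy and HEK293 did not overlap with each other or with those of PC3M and U937, while the latter pair overlapped. Against HEK293, PLAT was lower in U937 (difference −4.77 ± 0.69, limma adjusted p = 0.0026) and in PC3M (difference −3.98 ± 0.69, adjusted p = 0.0079). The PC3M call was lost without HEK293 replicate 1 or 2 (0.062 and 0.067), with differences of −3.95 and −4.01. EaHy exceeded U937 and PC3M by more: U937 minus EaHy was −6.90 ± 0.69 (adjusted p = 0.00062), and EaHy minus PC3M was 6.11 ± 0.69 (adjusted p = 0.0018). The step from HEK293 to EaHy, 2.12 ± 0.69, did not pass (adjusted p = 0.083). It was 2.66, 2.74 and 3.10 and passed after the 3 scalings (0.012, 0.0065 and 0.0044). It also passed with a pseudocount of 1 (0.046) and without PC3M replicate 1 or 2. U937 and PC3M were 0.79 apart (95% interval of U937 minus PC3M from −2.38 to 0.80, adjusted p = 0.42), and passed only after quantile normalization (−1.59, adjusted p = 0.038).

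The balance of the activators also differed between lines. PLAU exceeded PLAT 76.9-fold and 67.5-fold in the PC3M libraries and 14.4-fold and 242-fold in U937. PLAT was under 0.5 FPKM in PC3M replicate 2 (0.325) and U937 replicate 2 (0.0702), so the size of these ratios is uncertain. In HEK293 the PLAU to PLAT ratio was 0.0650 and 0.0266. In EaHy the activators were at similar levels, with ratios of 0.777 and 0.710.

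**Figure D2:**
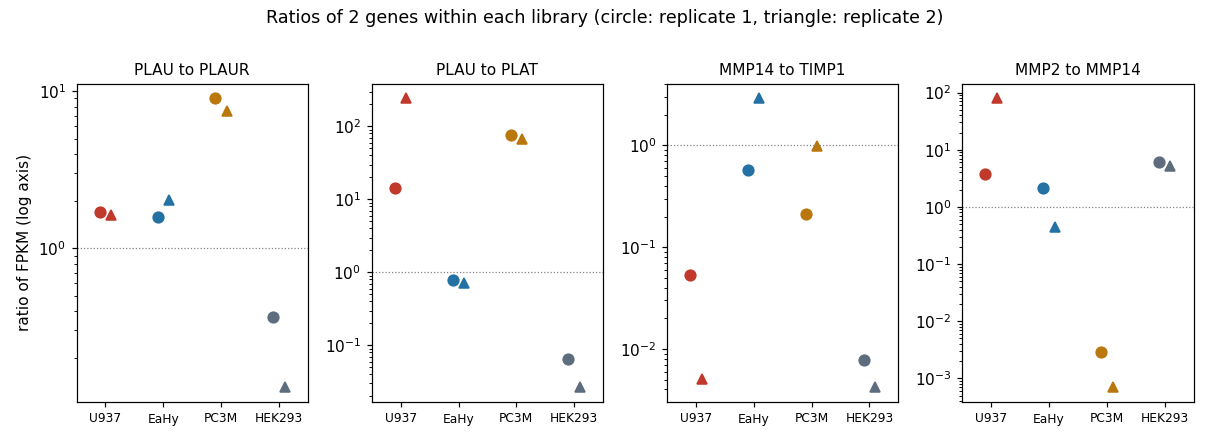
Ratio of the FPKM of 2 genes within each library on a log axis, with replicate 1 as a circle and replicate 2 as a triangle, and the dotted line at equal levels. The PLAU to PLAT ratio lies at 67.5 and 76.9 in PC3M and at 0.0266 and 0.0650 in HEK293, and the MMP2 to MMP14 ratio is lowest in PC3M.

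SERPINB2 was the gene of the set in which U937 was highest. SERPINB2, on chromosome 18, was at 43.9 and 167 FPKM for U937, 23.3 and 3.02 for EaHy, 0.176 and 0 for PC3M, and 0.139 and 0 for HEK293. Both U937 libraries lay above both EaHy libraries, and PC3M and HEK293 overlapped near 0. SERPINB2 was higher in U937 than in HEK293 by 7.25 ± 0.98 (limma adjusted p = 0.002) and than in PC3M by 7.21 ± 0.98 (adjusted p = 0.0027). Both calls passed in every alternative run. U937 exceeded EaHy by 3.24 ± 0.98, which did not pass (adjusted p = 0.07), but it passed after quantile normalization (0.041) and without EaHy replicate 1 (0.014, difference 4.62). EaHy exceeded HEK293 by 4.02 ± 0.98 (adjusted p = 0.028) and PC3M by 3.98 ± 0.98 (adjusted p = 0.046). Without EaHy replicate 1 they were 2.64 and 2.60 (adjusted p = 0.078 and 0.21).

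The EaHy calls of SERPINB2 were fragile in other fits too. Against HEK293 the call was lost with a pseudocount of 1 (limma adjusted p = 0.051), with no filter (0.067) and without HEK293 replicate 1 or 2 (0.12 and 0.16). Against PC3M it was lost in 10 of 16 alternatives, among them the replicate block (0.071) and leaving out PC3M replicate 1 or 2 (0.072 and 0.2), HEK293 replicate 1 or 2 (0.091 and 0.091) or U937 replicate 1 or 2 (0.059 and 0.056). The inhibitor also stood in different proportion to its target. The PLAU to SERPINB2 ratio was 0.188 and 0.102 in U937 and 3.90 and 17.3 in EaHy, so SERPINB2 RNA exceeded PLAU RNA in U937 and not in EaHy. SERPINB10, which shares exon sequence with SERPINB2 on the same strand in the annotation, had 1.27 and 1.53 FPKM for U937 and 0.0272 FPKM or less elsewhere.

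MMP1, interstitial collagenase, had the largest difference between lines of the set. MMP1, on chromosome 11, was at 209 and 299 FPKM for EaHy, 1.37 and 0.317 for PC3M, 0.641 and 0 for HEK293, and 0.445 and 0.123 for U937. The EaHy libraries lay far above the other 6, and the other 3 lines overlapped. EaHy exceeded HEK293 by 8.37 ± 0.67 (limma adjusted p = 0.00063) and PC3M by 7.66 ± 0.67 (adjusted p = 0.00078). U937 minus EaHy was −8.35 ± 0.67 (adjusted p = 0.00036). These 3 calls passed in every alternative run. PC3M was 0.71 ± 0.67 above HEK293 (adjusted p = 0.43), and U937 differed from HEK293 by 0.02 with a 95% interval from −1.52 to 1.57. After quantile normalization PC3M exceeded HEK293 by 1.84 (0.019) and U937 minus PC3M was −1.52 (0.026). MMP1 ranked at percentile 98.3 and 98.4 of all tested genes within the EaHy libraries, a position that scaling does not change.

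MMP2, gelatinase A, was highest in EaHy and near 0 in PC3M. MMP2, on chromosome 16, was at 118 and 60.2 FPKM for EaHy, 5.26 and 35.4 for U937, 3.20 and 1.42 for HEK293, and 0.0225 and 0.00363 for PC3M. The 4 lines did not overlap, although the U937 libraries were far apart. EaHy exceeded HEK293 by 4.99 ± 0.90 (limma adjusted p = 0.0078) and PC3M by 7.37 ± 0.90 (adjusted p = 0.0026), and U937 exceeded PC3M by 4.81 ± 0.90 (adjusted p = 0.01). The EaHy to PC3M call passed in every alternative. The EaHy to HEK293 call was lost without HEK293 replicate 2 (0.072, difference 4.51) and in the fit without the 3 libraries that stood apart (0.054, difference 5.47). The U937 to PC3M call was lost without U937 replicate 2 (0.059, difference 3.49) or PC3M replicate 2 (0.055, difference 4.78). Neighbours in the order EaHy, U937, HEK293 and PC3M did not pass: U937 minus EaHy was −2.56 (adjusted p = 0.12), U937 minus HEK293 2.43 (0.13) and PC3M minus HEK293 −2.38 (0.078). Some of these passed in other fits. U937 minus EaHy passed after the 3 scalings (0.033, 0.026 and 0.0099) and without U937 replicate 2 (0.04). U937 minus HEK293 passed after quantile normalization (0.049) and without U937 replicate 1 (0.036, difference 3.75), and PC3M minus HEK293 with a pseudocount of 0.1 (0.022, difference −4.31).

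MMP14, the membrane-bound activator of MMP2, followed another order. MMP14, on chromosome 14, was at 55.2 and 135 FPKM for EaHy, 7.91 and 5.21 for PC3M, 1.38 and 0.448 for U937, and 0.518 and 0.278 for HEK293. EaHy lay above PC3M and PC3M above the other lines without overlap, and U937 and HEK293 overlapped. EaHy exceeded HEK293 by 6.61 ± 0.67 (limma adjusted p = 0.00095), U937 minus EaHy was −6.02 ± 0.67 (adjusted p = 0.00094), and both passed in every alternative. PC3M exceeded HEK293 by 2.96 ± 0.67 (adjusted p = 0.019), and EaHy exceeded PC3M by 3.65 ± 0.67 (adjusted p = 0.015). The former call was lost without PC3M replicate 2 (0.061, difference 3.24) or HEK293 replicate 1 or 2 (0.096 and 0.15, differences 3.16 and 2.77), and the latter without PC3M replicate 2 (0.072, difference 3.37). U937 minus PC3M was −2.37 ± 0.67 (adjusted p = 0.04). It was lost in 8 of 16 alternatives: with a replicate block (0.059), with no filter (0.07) and without replicate 1 or 2 of U937 (0.093 and 0.21), PC3M (0.075 and 0.083) or HEK293 (0.087 and 0.086).

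PC3M had MMP14 RNA with MMP2 RNA near 0. The MMP2 to MMP14 ratio was 0.00285 and 0.000697 for PC3M, 2.13 and 0.446 for EaHy, 6.18 and 5.10 for HEK293, and 3.80 and 78.9 for U937. The PC3M ratios lay below those of the other 6 libraries. The U937 ratio of 78.9 rests on MMP14 at 0.448 FPKM, so its size is uncertain.

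MMP9, gelatinase B, was low in all lines. MMP9, on chromosome 20, was at 0.427 and 0.0489 FPKM for U937, 0.410 and 0.141 for EaHy, 0.254 and 0.239 for HEK293, and 0.0351 and 0 for PC3M. U937, EaHy and HEK293 overlapped, and no difference was tested at these levels.

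TIMP1 was at 5.32 FPKM or more in all libraries, and no pair of lines passed with the values as deposited. TIMP1, on chromosome X, was at 66.5 and 66.3 FPKM for HEK293, 97.2 and 46.7 for EaHy, 25.7 and 88.4 for U937, and 37.1 and 5.32 for PC3M. EaHy, HEK293 and U937 overlapped, and PC3M lay below EaHy and HEK293. EaHy and HEK293 were 0.02 apart, with a 95% interval from −2.31 to 2.35. PC3M minus HEK293 was −2.18 (95% interval from −4.51 to 0.15, limma adjusted p = 0.13) and EaHy minus PC3M was 2.198 (from −0.13 to 4.53, adjusted p = 0.24). After housekeeping centring TIMP1 was at 33.2 and 15.4 in PC3M and at 51.4 and 41.0 in HEK293. It was then at 116 and 74.1 in EaHy and at 23.0 and 42.4 in U937. The PC3M library with less TIMP1 was also the one of low housekeeping values, and a cause was not tested. After this centring EaHy minus PC3M was 2.01 and passed (0.038). Without PC3M replicate 1, PC3M minus HEK293 was −3.52 (0.026), U937 minus PC3M was 3.05 (0.045, from 1.71) and EaHy minus PC3M was 3.54 (0.05). The MMP14 to TIMP1 ratio was 0.568 and 2.89 for EaHy, 0.213 and 0.980 for PC3M, 0.0538 and 0.00507 for U937, and 0.00779 and 0.00419 for HEK293. The EaHy and PC3M ratios overlapped and lay above those of U937 and HEK293.

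**Figure D3:**
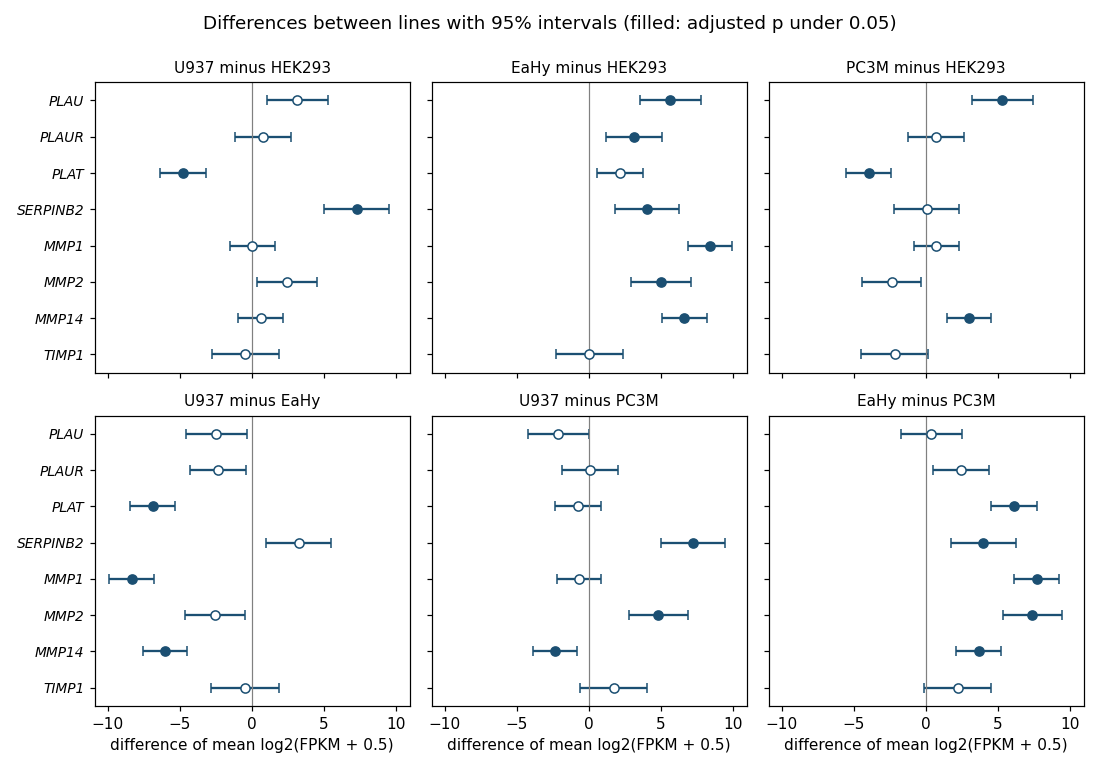
Difference of the mean log2(FPKM + 0.5) between 2 lines for the 8 tested genes, one panel per pair of lines, with 95% intervals from the limma fit. Filled points passed at an adjusted p under 0.05. In EaHy minus HEK293, 6 of 8 genes are filled and lie at 3.11 or above, while TIMP1 is open in all 6 panels.

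Counted over the 8 tested genes, EaHy differed most from the other lines. Against HEK293, 6 were higher in EaHy, where 4.55% of all 16295 tested genes were higher, 9.8% lower and 14.4% called in either direction. Their median difference was 4.50, beside −0.67 for all tested genes. Against PC3M, 5 were higher in EaHy (6.28% of all tested genes higher, 1.44% lower, 7.71% called in either direction), with a median of 3.81 beside 0.59. U937 was lower than EaHy for 3 genes, PLAT, MMP1 and MMP14 (6.77% of all lower, 5.95% higher, 12.7% called in either direction), with a median of −2.52 beside 0.38. In the other pairs the calls went in both directions. U937 and HEK293 differed in 2 genes, 1 higher and 1 lower (4.47% of all higher, 10.6% lower, 15.1% called), PC3M and HEK293 in 3, 2 higher and 1 lower (2.39%, 25.3% and 27.7%), and U937 and PC3M in 3, 2 higher and 1 lower (17.2%, 4.57% and 21.8%). Libraries of the lines did not overlap for 7 of the 8 genes between EaHy and HEK293 (63.3% of all tested genes), 7 between U937 and EaHy (54%) and 7 between EaHy and PC3M (45.3%). The number was 5 between U937 and HEK293 (53.6%), 5 between PC3M and HEK293 (70.2%) and 4 between U937 and PC3M (62.5%), close to or under the share of all genes. The comparisons share libraries of a line, and the genes were chosen with earlier results known, so the counts are descriptions. They moved with scaling: for U937 against EaHy 6, 7 and 6 genes were called after upper-quartile scaling, quantile normalization and housekeeping centring. Quantile normalization gave 6 for U937 against PC3M, 5 for PC3M against HEK293 and 4 for U937 against HEK293. It also moved the split of all genes for PC3M against HEK293 from 390 higher and 4127 lower to 1283 and 1463. The counts moved with single libraries too: without HEK293 replicate 2, 3 genes were called for EaHy against HEK293 and none for PC3M against HEK293 in limma. Without HEK293 replicate 1, 1 was called for PC3M against HEK293, and without PC3M replicate 2, 3 for EaHy against PC3M. Without U937 replicate 2, 1 was called for U937 against PC3M, and without PC3M replicate 1, 5 for U937 against EaHy. Without the 3 libraries that stood apart, 5 were called for EaHy against HEK293.

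PLG, the plasminogen gene, was at 0.367 FPKM or less in all 8 libraries. Of 21 genes of the plasmin system outside the set, PLG among them, 13 were tested, and PLG was not. In EaHy against HEK293, 3 were higher (4.55% of all tested genes) and 2 lower (9.8%), with a median of −0.15 beside −0.67 for all tested genes. SERPINB8, an inhibitor of furin, was higher than in HEK293 by 5.31 ± 0.67 for U937 and by 4.29 ± 0.67 for EaHy (limma adjusted p = 0.0015 and 0.0041). VLDLR, a receptor that clears activator and inhibitor complexes, was higher in U937 than in EaHy by 4.80 ± 0.61 (adjusted p = 0.0017). These calls passed in every alternative run. ANXA2, a surface binding protein of plasminogen and PLAT, was higher in EaHy than in HEK293 by 4.37 ± 1.06 (adjusted p = 0.028). That call was lost with no filter (0.063), without EaHy replicate 1 or 2 (0.069 and 0.11) and without HEK293 replicate 1 or 2 (0.14 and 0.14), and without the 3 libraries that stood apart (0.11, difference 4.32). For the other pairs the share of all tested genes stands in brackets. In U937 against HEK293, 1 was higher (4.47%) and 2 lower (10.6%), and in PC3M against HEK293, 1 (2.39%) and 2 (25.3%). In U937 against EaHy, 1 was higher (5.95%) and 3 lower (6.77%). In U937 against PC3M, 2 were higher (17.2%), and in EaHy against PC3M, 1 (6.28%). No result about the plasmin list is drawn from the counts.

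Of 31 other genes of metalloproteinases, their inhibitors and their activating proteases, 20 were tested. In EaHy against HEK293, 2 were higher (4.55% of all tested genes) and 1 lower (9.8%), with a median of 0.21 beside −0.67 for all tested genes. MMP28 was counted among those higher, but it reached 0.5 FPKM in the EaHy libraries only, so it entered the test through them. Its calls here and in the other pairs with EaHy are not read as results. TIMP3, a matrix-bound inhibitor, was at 99.6 and 39.0 FPKM for EaHy, 7.42 and 8.70 for HEK293, 0.328 and 0.300 for U937, and 0.0425 and 0.00223 for PC3M. EaHy exceeded PC3M by 6.91 ± 0.60 (limma adjusted p = 0.00078), U937 minus EaHy was −6.27 ± 0.60 (adjusted p = 0.00054), and both passed in every alternative run. EaHy exceeded HEK293 by 2.88 ± 0.60 (adjusted p = 0.014), a call lost without HEK293 replicate 1 or 2 (0.13 and 0.11). TIMP2, the inhibitor that also bridges MMP14 and the MMP2 precursor, was at 55.2 and 19.7 FPKM for EaHy, 21.2 and 44.0 for U937, 8.14 and 12.1 for HEK293, and 3.30 and 1.60 for PC3M. It was higher than in PC3M by 3.57 ± 0.75 in EaHy and by 3.46 ± 0.75 in U937 (adjusted p = 0.025 and 0.018). The EaHy call was lost without EaHy replicate 1 (0.17), PC3M replicate 2 (0.11) or HEK293 replicate 1 or 2 (0.061 and 0.061), and the U937 call without U937 replicate 1 or 2 (0.053 and 0.11) or PC3M replicate 2 (0.077). FURIN, which cleaves the MMP14 precursor, was lower in PC3M than in HEK293 (difference −3.40 ± 0.83, adjusted p = 0.024), a call lost without PC3M replicate 2 (0.11) or HEK293 replicate 1 or 2 (0.094 and 0.15). For the other pairs the share of all tested genes stands in brackets. In U937 against HEK293, 3 of the 20 were lower (10.6%), and in PC3M against HEK293, 7 (25.3%). In U937 against EaHy, 4 were lower (6.77%), MMP28 among them. In U937 against PC3M, 5 were higher (17.2%) and 1 lower (4.57%). In EaHy against PC3M, 5 were higher (6.28%), MMP28 among them, and 1 lower (1.44%). No result about this list is drawn from the counts.

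**Figure D4:**
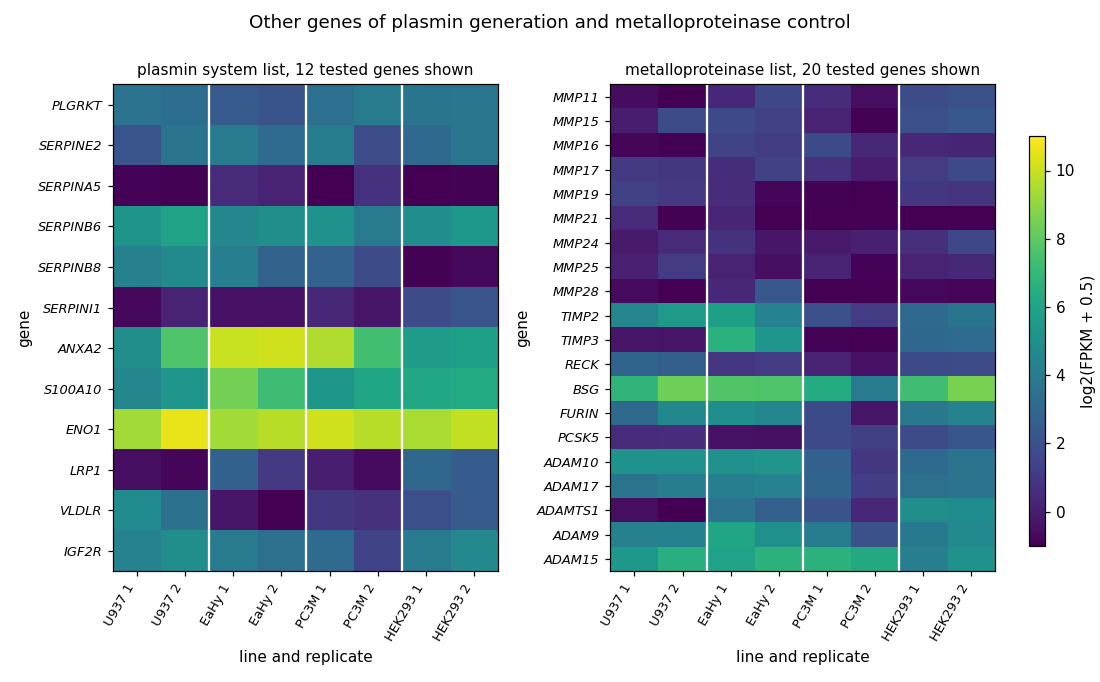
Levels of the tested genes of the plasmin system list (12 of the 13 genes, left) and of the metalloproteinase list (20 genes, right) in the 8 libraries, coloured by log2(FPKM + 0.5). TIMP3 is high in the 2 EaHy libraries, at 99.6 and 39.0 FPKM, and ENO1 is high in all 8, at 648 FPKM or more.

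All 17 genes of AP-1, ETS and NF-κB factors were tested, and the share of all tested genes stands in brackets. Against HEK293, 4 were higher (4.47%) and 2 lower (10.6%) in U937, and 4 higher (4.55%) and 1 lower (9.8%) in EaHy. In PC3M, 2 were higher (2.39%) and 3 lower (25.3%) than in HEK293. No result about these factors as a list is drawn from the counts. ETS1, an ETS factor of blood and endothelial cells, was at 25.9 and 16.5 FPKM for U937, 22.7 and 11.3 for EaHy, 1.63 and 0.482 for PC3M, and 0.298 and 0.104 for HEK293. It was higher than in HEK293 by 4.93 ± 0.65 for U937 and by 4.57 ± 0.65 for EaHy (limma adjusted p = 0.0018 and 0.0028), calls that passed in every alternative run. ATF3, a stress-induced factor of the AP-1 group, was at 73.1 and 49.5 FPKM in HEK293 and at 5.29 FPKM or less in the other 6 libraries. It was lower than in HEK293 in U937 and in PC3M (differences −3.97 ± 0.65 and −4.93 ± 0.65, adjusted p = 0.0043 and 0.0028), and in EaHy (−3.86 ± 0.65, adjusted p = 0.0057), where the call was lost without HEK293 replicate 1 (0.062). JUN, the AP-1 core subunit, was at 145 and 97.4 FPKM for HEK293, 63.5 and 48.6 for EaHy, 26.5 and 20.7 for PC3M, and 5.37 and 12.8 for U937. U937 minus HEK293 was −3.76 ± 0.67 (adjusted p = 0.0067), a call lost without U937 replicate 1 (0.054) or HEK293 replicate 1 (0.069).

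The 8 libraries differed in small RNA content, their depth is unknown, and they hold only 4 independent lines. Across them, MMP1 and MMP14 had the most similar patterns within the set (Pearson r = 0.93 of log2 values). PLAUR followed MMP1 (0.86) and MMP14 (0.78), PLAU followed MMP14 (0.76) and PLAUR (0.73), and PLAT followed MMP1 (0.74). For PLAU and PLAT r was 0.0015, and for PLAT and SERPINB2 it was −0.20. Among 14325 other tested genes, MMP1 was most like THBS1 and NT5E (0.998 and 0.996). PLAT was most like CROT and PDGFC (0.991 and 0.989), SERPINB2 like SLC43A3 and P2RY2 (0.991 and 0.988), and MMP14 like RGS3 and VEPH1 (0.987 and 0.984). PLAU was most like LGALS1 and ANTXR2 (0.981 and 0.954), PLAUR like PLEC and SYNJ2 (0.973 and 0.964), MMP2 like MARCH3 and LUZP1 (0.987 and 0.983), and TIMP1 like TNIP1 and SLC7A6OS (0.988 and 0.986). The number of genes with r over 0.95 was 168 for MMP1 and 2 for PLAU.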

How the data were processed

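Each library has 1 column of deposited FPKM, by gene symbol. The submitters' processing notes name cutadapt, TopHat2 2.0.11, Cufflinks 2.2.1 and the build hg19, without settings. No scaling between libraries is stated. From these values, log2(FPKM + 0.5) was analysed in R 4.3.3 with limma 3.58.1. A gene was tested if 2 or more of the 8 libraries reached 0.5 FPKM, which left 16295 of 23615. A single model with a mean per line and a trended variance prior gave the 6 pairs of lines, two-sided, with Benjamini-Hochberg adjustment over all tested genes within each pair, and an adjusted p under 0.05 was called. Differences are on the log2(FPKM + 0.5) scale and understate the change of low genes. The fit was tested on simulated data.

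The members and lists were chosen with earlier results of these data known. Besides the members, the text names called genes of the lists with the largest differences (up to 4 per list and pair) and the 2 genes most correlated with each member. PLG, C10orf55 and SERPINB10 were named after their values were seen, as were the genes of the closing section. Alternatives were other pseudocounts, filters and scalings, a replicate block, and leaving out each library, which takes the remaining library of a line to vary as other lines do. A fit without the 3 libraries that stood apart was chosen after seeing the data. Exon overlaps were read from GENCODE 29 and promoter sequences from RefSeq, both of a newer build than the values. Protein sequences were not used here. Single genes of the lists are not reported here, though they stay in the counts.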

Additional observations from a re-analysis of the deposited data

How the results depend on the processing

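Of 48 differences (8 genes in 6 pairs of lines), 22 were called, and 12 of these were called in every alternative run. Of 792 alternative values, 682 kept their direction and side of the threshold, 43 lost a call, 49 gained one and 18 changed sign, all of these from differences that were not called. FPKM carry no depth, so detection limits cannot be given.

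The number of the 8 genes called moved with scaling and with single libraries. Quantile normalization gave 4 for U937 against HEK293 (2 as reported), 5 for PC3M against HEK293 (3), 7 for U937 against EaHy (3) and 6 for U937 against PC3M (3). Upper-quartile scaling and housekeeping centring each gave 6 for U937 against EaHy. Leaving out a library gave 2 to 3 for U937 against HEK293, 3 to 7 for EaHy against HEK293 (6 as reported), 0 to 4 for PC3M against HEK293, 3 to 5 for U937 against EaHy, 1 to 3 for U937 against PC3M and 3 to 6 for EaHy against PC3M (5).

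Over all genes, with 4517 called for PC3M against HEK293, no filter gave 2802 and quantile normalization 2746 (1283 higher and 1463 lower, against 390 and 4127). For U937 against EaHy (2073), quantile normalization gave 3253 and housekeeping centring 3221 (724 higher and 2497 lower, against 970 and 1103). No filter gave 2005 for U937 against PC3M (3554). For EaHy against PC3M (1257), upper-quartile scaling gave 2461 (1371 higher, 1090 lower), quantile normalization 2367 (1210 and 1157) and housekeeping centring 3274, against 1023 higher and 234 lower as reported. Leaving out a library gave 1164 to 2702 for U937 against HEK293 (2462), 965 to 2986 for EaHy against HEK293 (2339), 745 to 7103 for PC3M against HEK293, 1139 to 2441 for U937 against EaHy, 1032 to 5403 for U937 against PC3M and 658 to 2324 for EaHy against PC3M. The shift of each gene's difference from the reported fit was also taken, and its median over all genes is given here. Under upper-quartile scaling, quantile normalization and housekeeping centring it was 1.12, 1.31 and 0.97 for PC3M against HEK293. It was 0.49, 0.60 and 0.87 for EaHy against HEK293 and 0.13, 0.30 and −0.07 for U937 against HEK293. For U937 against EaHy the median shift was −0.35, −0.30 and −0.91, and for U937 against PC3M −0.98 under each. For EaHy against PC3M it was −0.67, −0.72 and −0.14. The causes were not tested.

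Of the 33 tested plasmin and metalloproteinase partners, no filter gave 5 calls for PC3M against HEK293 (10 as reported), 5 for U937 against EaHy (8) and 4 for U937 against PC3M (8). Housekeeping centring gave 14 for U937 against EaHy and 14 for EaHy against PC3M (7). The fit without the 3 libraries gave 5 for EaHy against HEK293 (8). Leaving out a library gave 2 to 8 for U937 against HEK293 (6), 2 to 9 for EaHy against HEK293, 0 to 15 for PC3M against HEK293, 4 to 9 for U937 against EaHy, 0 to 12 for U937 against PC3M and 2 to 9 for EaHy against PC3M.

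Signs changed as follows. PLAUR, U937 minus PC3M, 0.08 as reported, was −1.10 after upper-quartile scaling, −1.16 after quantile normalization and −1.10 after housekeeping centring, and −0.99 to 1.15 without a library. PLAU, EaHy minus PC3M, was −0.50 after upper-quartile scaling and −0.93 to 1.63 without a library. MMP1, U937 minus HEK293, was −0.0081 with a pseudocount of 1 and −0.57 to 0.62 without a library. Without a library TIMP1 ranged from −1.35 to 0.41 for U937 minus HEK293, −0.50 to 0.55 for EaHy minus HEK293 and −1.37 to 0.39 for U937 minus EaHy, PLAUR from −0.39 to 1.76 and SERPINB2 from −0.18 to 0.26 for PC3M minus HEK293.

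The differences between replicates correlated between U937 and HEK293 at 0.33 over 16295 genes, so these lines shared part of their replicate difference. Between the other lines the correlation was −0.15 to 0.10, so a pairing by replicate number was not seen across all lines. With a replicate block, 2, 5, 3, 3, 2 and 4 of the 8 genes were called for U937, EaHy and PC3M against HEK293, U937 against EaHy, U937 against PC3M and EaHy against PC3M, beside 2, 6, 3, 3, 3 and 5 without it. Of the partners, 4 were called for EaHy against PC3M with the block (7 without).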

Other observations

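Some related genes differed widely between the EaHy libraries. MMP10, stromelysin-2, was at 0.136 and 3.67 FPKM in EaHy and at 0.168 FPKM or less in the other 6 libraries, so it was not tested. FOSL1, an AP-1 subunit, was at 110 and 2.57 FPKM for EaHy, 18.5 and 3.38 for PC3M, 1.32 and 5.78 for U937, and 1.43 and 0.695 for HEK293. MMP28, epilysin, was at 0.768 and 4.34 FPKM in EaHy and at 0.136 FPKM or less elsewhere. It reached 0.5 FPKM in the EaHy libraries only, so it entered the test through the line where it was high. Its calls are therefore not read as results. The reported counts of metalloproteinase genes and of partners in the pairs with EaHy include it.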
